A study of Homo sapiens with 2 samples.

Results

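The BEX and TCEAL genes form a small family of short, mostly disordered proteins encoded close together on the long arm of the X chromosome. BEX stands for brain-expressed X-linked and TCEAL for transcription elongation factor A-like, after a resemblance to the elongation factor TFIIS. ARMCX4 belongs to the neighbouring ARMCX genes, whose proteins carry armadillo repeats. The 10 genes described here were BEX1 to BEX5, TCEAL1 to TCEAL4 and ARMCX4, and they were measured by 14 of the 54675 probe sets of the array. Members were found by gene symbol, with older names checked by Entrez identifier, because BEX1 and BEX2 each carry the other's symbol as an older name (Entrez 55859 for BEX1 and 84707 for BEX2, as the array annotation has them). They were chosen with the difference between these 2 arrays already known, so every difference below is a description and none is tested.

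The lines compared were C4-2B-MDVR and C4-2B. C4-2B-MDVR is a human prostate cancer cell line resistant to the antiandrogen enzalutamide, obtained from C4-2B by growth under that drug for a long time. C4-2B is the enzalutamide-sensitive parent line. Both lines were grown in serum-containing medium with penicillin and streptomycin and were left untreated until total RNA was isolated, and the labels do not say whether either line is 1 clone. Each line was measured on 1 Affymetrix array, so there is no spread between replicates, and neither a p-value nor an SE exists for any value below. The title, source and cell line labels name C4-2B-MDVR and C4-2B, whereas the free-text descriptions call the resistant sample a docetaxel-resistant line, TaxR, and the other docetaxel-sensitive. The cell line labels were followed here, so each direction holds for the array labelled C4-2B-MDVR.

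BEX proteins have been described mainly in nerve cells, where BEX1 and BEX3 bind the neurotrophin receptor p75NTR in rodents and take part in survival and cell death signals. Several BEX proteins also bind FEM1B, the substrate receptor of a CUL2 ubiquitin ligase that degrades the folliculin partner FNIP1, and act as its inhibitors. BEX1 and BEX2 are known to be silenced by promoter methylation in glioma. BEX1 is also expressed in neuroendocrine tissues.

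The members' promoters share short runs of letters, and these are shown first because members with large and with small differences carry near copies of them. The sequences come from NCBI RefSeq, build GRCh38.p14, whose table held promoters for all 10 members in 16 entries, 1 for each annotated start. Each line gives 30 bases, 5′ to 3′ on the gene's own strand, lined up on the 6-letter run CACGTG, a palindrome known as an E-box. BEX5 has no CACGTG and is lined up on GACGTG, which overlaps its TGACG. Capitals mark CACGTG and a second run, TGACG, where they stand on the gene's strand.
BEX1: ggTGACGcacggccctCACGTGaccgggag
BEX3: ggTGACGcgcggccctCACGTGacccagag
ARMCX4: ggTGACGcgcggtcctCACGTGacccggag
TCEAL1: agTGACGcgcgtccctCACGTGaccaggag
TCEAL2: ccggTGACGcggtgctCACGTGacccgccc
TCEAL3: cgggTGACGcggcgctCACGTGacccgccg
BEX2: gcgatgacaacagccaCACGTGatcggcca
BEX4: gcgatgacaacagcccCACGTGaccggcca
TCEAL4: cctgggctgcggcattCACGTGatctgcac
BEX5: aatctgagctcacagTGACGtgacccttag

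These windows lie at chrX:103064205-103064234 on the minus strand for BEX1, chrX:103376475-103376504 on the plus strand for BEX3 and chrX:101485393-101485422 on the plus strand for ARMCX4. Those of TCEAL1, TCEAL2 and TCEAL3 lie on the plus strand at chrX:103628903-103628932, chrX:102125611-102125640 and chrX:103607867-103607896. The BEX2 window is at chrX:103310996-103311025 on the minus strand and the BEX5 window at chrX:102156016-102156045 on the minus strand. The BEX4 window is at chrX:103215073-103215102 and the TCEAL4 window at chrX:103585489-103585518, both on the plus strand. All are read from the 300-base promoter entries, which run from 250 bases before to 50 bases after a start.

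CACGTG was present in promoters of 9 of the 10 members, all but BEX5, against 8.77% of the 27305 genes with a promoter of the same length. Its first base lay between 3 and 80 bases before the start. TGACG on either strand was present in 9 of the 10, all but TCEAL4, against 28.4% of all genes. The ordered pair, TGACG followed within 12 bases by CACGTG on either strand, was present in 6 of the 10 members against 0.278% of all genes. The gap was 9 bases in BEX1, BEX3, TCEAL1 and ARMCX4 and 7 bases in TCEAL2 and TCEAL3. A further 14 genes were listed, from the BEX, TCEAL, ARMCX and GPRASP families together with ARMC10 of chromosome 7. Of these 14, 12 had a promoter in the table and 5 of the 12 held the pair (ARMCX1, ARMCX6, TCEAL5, TCEAL6 and TCEAL8). These letters were picked by reading the members' own promoters, so their shares describe the family, and a match is not evidence that any factor binds there.

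**Figure D1:**
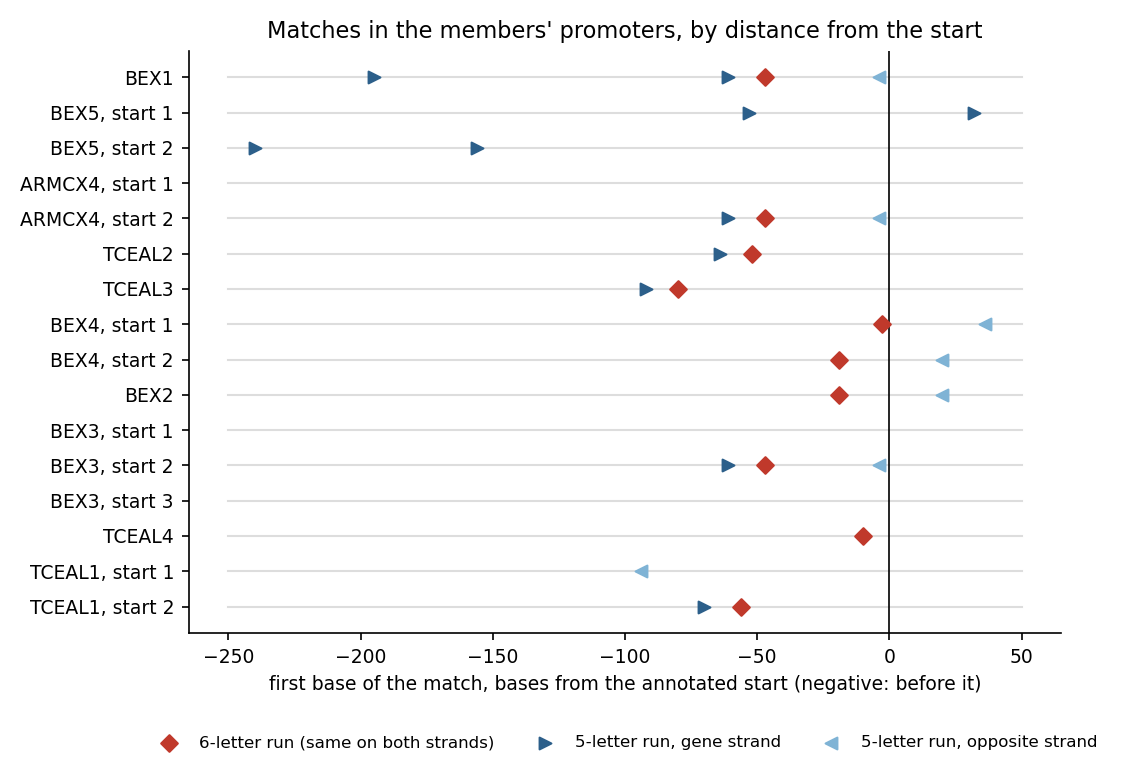
Matches of the 6-letter run CACGTG (red diamonds) and the 5-letter run TGACG (triangles, pointing by strand) in the members' 16 promoter entries, by bases from the annotated start. Members run from the largest to the smallest measured difference between the arrays, and the pair of runs lies 47 to 80 bases before a start (by the first base of the 6-letter run) in the 6 members that hold it.

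Longer stretches are shown for 5 members, 4 that were 2-fold or more higher in C4-2B-MDVR and BEX2, which was not. Each is the 250 bases before the farthest upstream start, in lower case with the same 2 runs in capitals. They lie at chrX:103064172-103064421 (BEX1, minus strand), chrX:102155978-102156227 (BEX5, minus strand), chrX:102125429-102125678 (TCEAL2, plus strand), chrX:103607713-103607962 (TCEAL3, plus strand) and chrX:103310991-103311240 (BEX2, minus strand).
BEX1: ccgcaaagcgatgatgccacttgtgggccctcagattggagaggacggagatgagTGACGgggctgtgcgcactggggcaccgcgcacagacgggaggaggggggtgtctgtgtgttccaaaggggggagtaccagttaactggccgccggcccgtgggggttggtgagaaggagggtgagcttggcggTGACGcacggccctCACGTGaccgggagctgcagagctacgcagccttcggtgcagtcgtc
BEX5: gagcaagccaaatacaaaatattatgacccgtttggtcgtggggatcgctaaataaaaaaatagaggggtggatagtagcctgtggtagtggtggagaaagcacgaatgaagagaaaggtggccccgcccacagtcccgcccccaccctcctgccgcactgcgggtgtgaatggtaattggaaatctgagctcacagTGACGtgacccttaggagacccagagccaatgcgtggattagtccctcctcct
TCEAL2: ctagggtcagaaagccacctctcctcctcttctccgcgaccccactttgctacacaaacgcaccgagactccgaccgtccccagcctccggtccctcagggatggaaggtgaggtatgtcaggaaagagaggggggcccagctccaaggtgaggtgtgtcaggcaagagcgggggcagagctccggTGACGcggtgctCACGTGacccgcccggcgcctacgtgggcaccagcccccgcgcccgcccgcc
TCEAL3: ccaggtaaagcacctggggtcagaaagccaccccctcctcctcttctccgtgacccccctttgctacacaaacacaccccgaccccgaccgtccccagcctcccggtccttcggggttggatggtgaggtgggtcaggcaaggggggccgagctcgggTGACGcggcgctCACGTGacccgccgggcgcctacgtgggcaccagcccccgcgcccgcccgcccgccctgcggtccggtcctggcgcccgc
BEX2: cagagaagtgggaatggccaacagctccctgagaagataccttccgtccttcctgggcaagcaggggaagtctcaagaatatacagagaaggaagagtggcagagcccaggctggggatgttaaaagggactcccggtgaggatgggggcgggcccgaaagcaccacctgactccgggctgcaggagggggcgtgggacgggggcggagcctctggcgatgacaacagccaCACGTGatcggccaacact

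Some of the members' promoters shared long unbroken runs with each other. The longest unbroken run of letters shared by 2 members' promoters was 45 bases for BEX2 and BEX4, 43 for BEX1 and ARMCX4, 38 for TCEAL2 and TCEAL3, 35 for BEX1 and BEX3 and 30 for BEX3 and ARMCX4. The remaining pairs of the 45 shared at most 13 bases. By these runs BEX1, ARMCX4 and BEX3 formed one group, TCEAL2 and TCEAL3 another, and BEX2 and BEX4 yet another. BEX5, TCEAL1 and TCEAL4 were in no group, and likeness over the whole promoters was not measured.

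Of the 10 members, 6 were 2-fold or more higher in C4-2B-MDVR and 0 were 2-fold or more lower. The 6 were BEX1, BEX5, ARMCX4, TCEAL2, TCEAL3 and BEX4, and the other 4, BEX2, BEX3, TCEAL4 and TCEAL1, were within 2-fold with differences above 0. A difference is the log2 intensity in C4-2B-MDVR minus that in C4-2B, and a probe set is called above the floor where the brighter of its 2 values reached the median intensity of its own array (43.5 for C4-2B-MDVR and 41.9 for C4-2B). Of the 14 member probe sets 10 were above the floor, 1 for each gene, and 4, all of ARMCX4, were under it on both arrays. Of all 28630 probe sets above the floor, 2.56% were 2-fold or more higher and 4.01% 2-fold or more lower, and counted by gene the shares were 3.17% and 3.50%. The median difference was 1.45 over the 10 member probe sets and 0.03 over all probe sets above the floor. Since the members were picked on this contrast, nothing is read from their count against these shares.

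**Figure D2:**
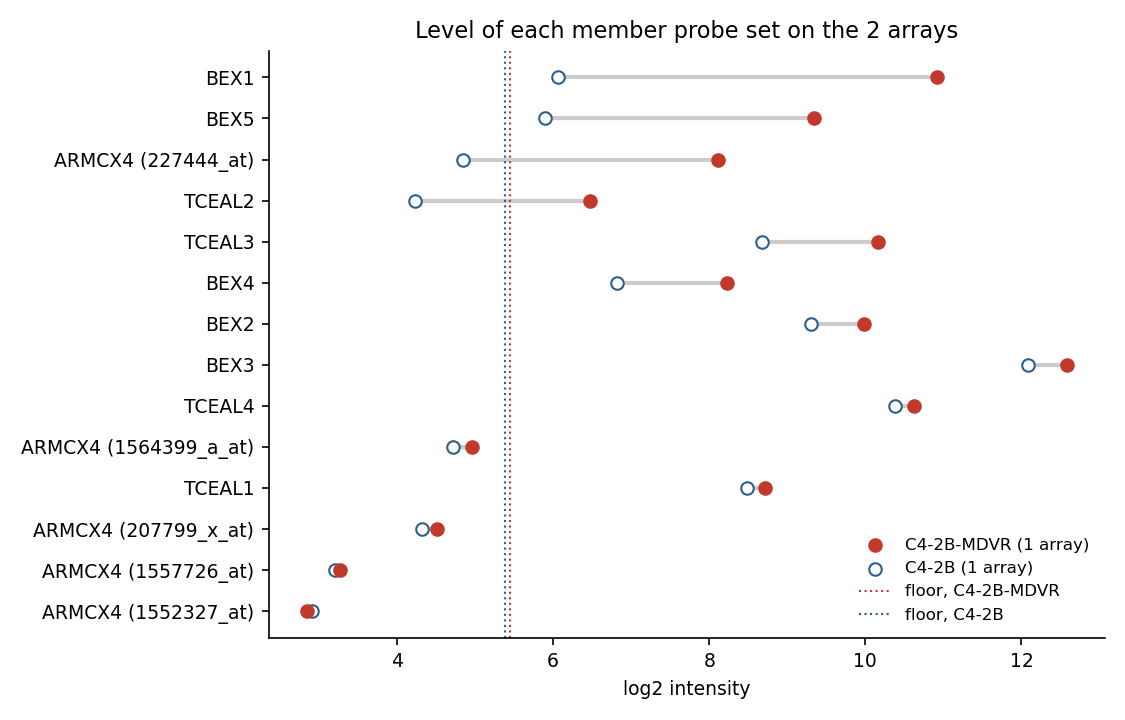
Log2 intensity of each of the 14 member probe sets on the C4-2B-MDVR array (filled) and the C4-2B array (open), with each array's floor as a dotted line. BEX1, BEX5, BEX4 and TCEAL3 lay above the floor on both arrays with wide gaps, TCEAL2 and 1 ARMCX4 probe set crossed the floor, and the other 4 ARMCX4 probe sets stayed under it.

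Among the BEX genes, BEX1 differed most. It had an intensity of 1938 in C4-2B-MDVR and 66.7 in C4-2B, a log2 difference of 4.86 or 29.1-fold. BEX1 was above the floor on both arrays, and among the 26025 probe sets for which this held it had the largest difference in the higher direction. Of all 28630 probe sets above the floor, which include those under it in C4-2B, 8 had a larger difference than BEX1. The C4-2B intensity of BEX1, 66.7, was not far above that array's floor of 41.9, so the size of its fold rests on a low value. The floor is a median and not a detection call, so expression of BEX1 in C4-2B is not shown. NGFR, the gene for the receptor p75NTR that BEX1 binds in rodents, had an intensity of 21.7 in C4-2B-MDVR and 20.6 in C4-2B, under the floor on both arrays. NGFR was chosen for naming after its values were seen.

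BEX5 was the second member by difference among those above the floor on both arrays. Its intensity was 651 in C4-2B-MDVR and 59.6 in C4-2B, a log2 difference of 3.45 or 10.9-fold. Only 7 of the 26025 probe sets above the floor on both arrays had a larger one, and 38 of all 28630 probe sets above the floor did. Its C4-2B intensity, 59.6, was also not far above that array's floor of 41.9. BEX5 was also the 1 member without the CACGTG run in its promoter.

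BEX4, which has been reported to associate with microtubules, had an intensity of 299 in C4-2B-MDVR and 113 in C4-2B, a log2 difference of 1.41 or 2.65-fold. Among the 4 members past 2-fold that were above the floor on both arrays, this was the smallest difference. The suffix of its probe set's name marks sequence shared with other transcripts in the maker's naming, so its value may not be a reading of BEX4 alone.

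BEX2 and BEX3 were above the floor on both arrays and within 2-fold. BEX2, which binds complexes of the transcription cofactor LMO2, had an intensity of 1012 in C4-2B-MDVR and 634 in C4-2B, a log2 difference of 0.67. It was the member nearest to 2-fold from below. BEX3, also known as NADE or NGFRAP1 and first described as a cell death mediator that binds p75NTR, had 6124 in C4-2B-MDVR and 4337 in C4-2B, a difference of 0.50. The name of the BEX3 probe set has the same suffix as that of BEX4, so its value may not be a reading of BEX3 alone. The intensities of different probe sets give no order of transcript abundance, so levels are compared only between the arrays.

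The TCEAL genes were split as well, 2 past 2-fold and 2 within it. TCEAL2 had an intensity of 88.7 in C4-2B-MDVR and 18.8 in C4-2B, where it was under the floor, and the measured log2 difference was 2.24. Against the C4-2B floor TCEAL2 was at least 2.12-fold higher. TCEAL3 had 1147 in C4-2B-MDVR and 407 in C4-2B, above the floor on both arrays, a log2 difference of 1.49 or 2.82-fold. TCEAL3 has a close relative, TCEAL6, that lists Tceal3 as an older name and had no probe set with a single symbol here, so signals of the 2 transcripts may not be separate.

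TCEAL4 and TCEAL1 were near equal on both arrays. TCEAL4 had an intensity of 1572 in C4-2B-MDVR and 1330 in C4-2B, a log2 difference of 0.24. TCEAL1, a nuclear phosphoprotein that modulates transcription, had 420 in C4-2B-MDVR and 360 in C4-2B, a difference of 0.22. Of the probe sets above the floor on both arrays, 23.9% had a larger difference than TCEAL4 and 25.6% a larger one than TCEAL1.

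ARMCX4 was represented by 5 probe sets, of which 1 was above the floor. That one had an intensity of 277 in C4-2B-MDVR and 28.7 in C4-2B, under the floor, a measured log2 difference of 3.27 and at least 6.60-fold against the floor. The other 4 were under the floor on both arrays, at 7.19 to 31.0 in C4-2B-MDVR and 7.51 to 26.3 in C4-2B, so no difference can be read from them (their measured ones lay between −0.06 and 0.24). With the mean over its 5 probe sets the ARMCX4 difference was 0.74, under 2-fold. The higher value of ARMCX4 thus rests on 1 probe set.

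**Figure D3:**
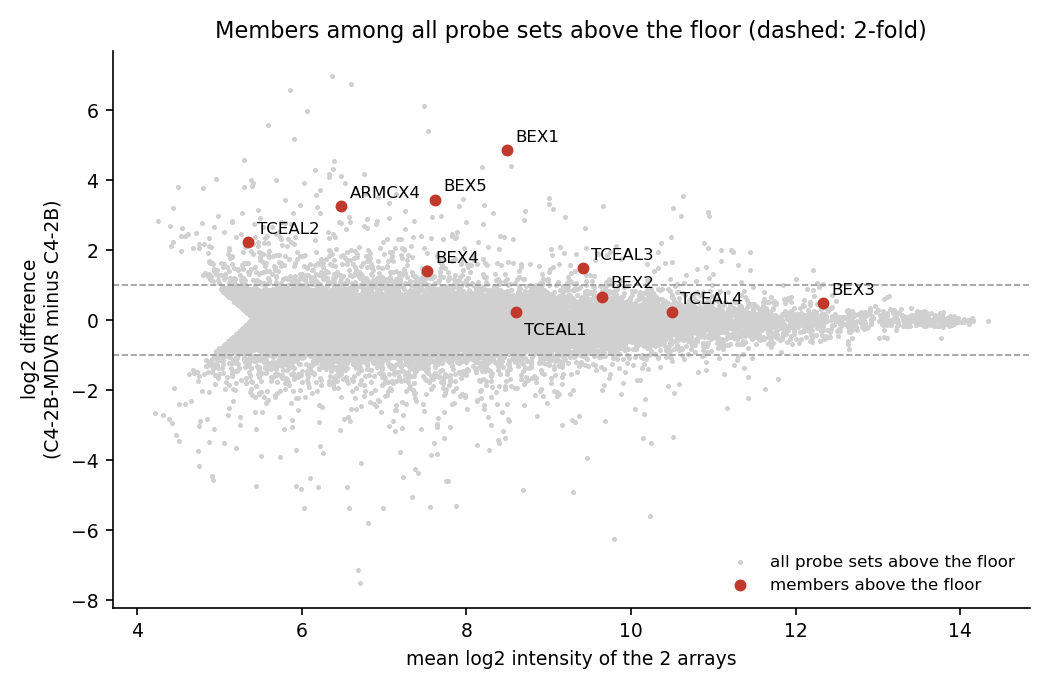
Log2 difference (C4-2B-MDVR minus C4-2B) against the mean log2 intensity of the 2 arrays, for all 28630 probe sets above the floor (grey) and the 10 member probe sets above it (red). Dashed lines mark 2-fold, and all 10 members lie above 0, with BEX1 at 4.86 and TCEAL1 at 0.22 as the extremes.

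Of the 10 members, 4 were 4-fold or more higher by measured difference (BEX1, BEX5, ARMCX4 and TCEAL2), as were 0.636% of all probe sets above the floor. By bound 3 of these 4 were: TCEAL2 had no level above the floor in C4-2B, and its bound is 2.12-fold. When each value under a floor was set to that floor, the same 6 members were 2-fold or more higher, as were 2.13% of all probe sets above the floor.

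Gene order showed that the differing members did not form 1 unbroken block. In RefSeq order the stretch of the X chromosome from ARMCX4 to TCEAL1 held 33 protein-coding genes, of which 10 were members, 13 were other genes of the BEX, TCEAL, ARMCX and GPRASP families and 10 were others, among them the readthrough gene ARMCX5-GPRASP2. BEX5 and TCEAL2 lay near each other with TCEAL6 between them. BEX1 and BEX4 were parted by NXF3, which was under the floor on both arrays. TCEAL3, at 1.49, lay between TCEAL4 at 0.24 and TCEAL1 at 0.22. BEX2 (0.67) and BEX3 (0.50) were on either side of TCEAL9 (1.12). Of these 10 others 4 had a probe set with a single symbol (ZMAT1, RAB40AL, NXF3 and RAB40A). All 4 were under the floor on both arrays, so no difference can be read from them.

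**Figure D4:**
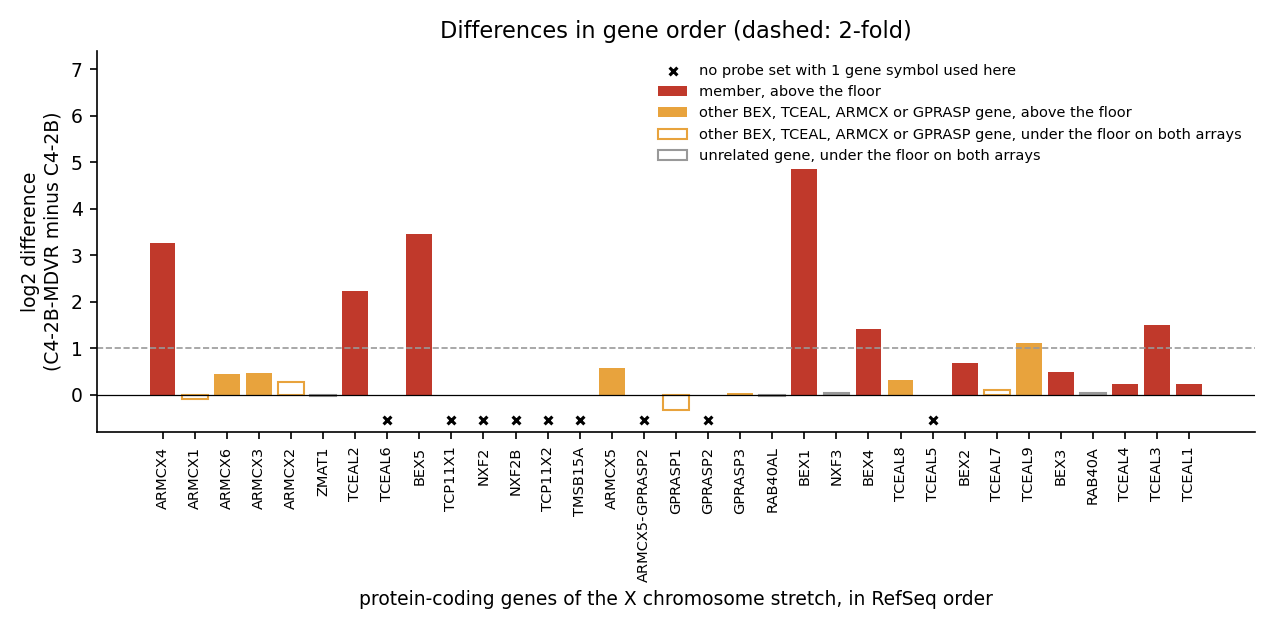
Log2 difference (C4-2B-MDVR minus C4-2B) of the 33 protein-coding genes from ARMCX4 to TCEAL1 in RefSeq order, by the probe set that stands for each gene. Members (red) past the dashed 2-fold line stand beside family genes (orange) and members under it, open bars are under the floor on both arrays, and crosses mark genes with no single-symbol probe set.

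Across the rest of the X chromosome, 391 genes outside these families were above the floor, with a median difference of 0.09 against 0.04 over all 13437 genes above it. Of the 391, 29 (7.42%) were 2-fold or more higher and 15 (3.84%) 2-fold or more lower. The shares over all genes above the floor were 3.17% higher and 3.50% lower.

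Other genes of the same families were listed by name. Of the 14 listed, 11 had a single-symbol probe set and 7 were above the floor, of which 1 was 2-fold or more higher and 0 lower, with a median of 0.44. Of the 7, only ARMC10, which lies on chromosome 7, was below 0, at −0.09, and its other probe set was at −0.55. The one past 2-fold was TCEAL9, formerly WBP5, with an intensity of 1261 in C4-2B-MDVR and 579 in C4-2B, a difference of 1.12. ARMCX5 came next at 0.58, with 517 in C4-2B-MDVR and 345 in C4-2B, and its other probe set was at 0.12. TCEAL7, ARMCX1, ARMCX2 and GPRASP1 were under the floor on both arrays. Members and other family genes were separated with the values known, so their difference is no finding.

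Members past 2-fold were found with and without the ordered pair of runs. Of the 6 members with the ordered pair of runs, 4 were 2-fold or more higher (BEX1, TCEAL2, TCEAL3 and ARMCX4) and 2 within 2-fold (BEX3 and TCEAL1). Of the 4 without it, 2 were 2-fold or more higher (BEX4 and BEX5) and 2 within 2-fold (BEX2 and TCEAL4). Within the groups that share long runs, BEX1 (4.86) and ARMCX4 (3.27, at least 6.60-fold) were both past 2-fold and BEX3 (0.50) was not. TCEAL2 (2.24, at least 2.12-fold) and TCEAL3 (1.49) were both past 2-fold, while of BEX4 (1.41) and BEX2 (0.67) only BEX4 was.

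TFIIS, after which the TCEAL genes are named, lets stalled RNA polymerase II resume elongation. Of 11 listed genes for TFIIS and proteins with its domains, 9 were above the floor and 0 were 2-fold or more higher or lower, with a median of −0.07. TCEA3, a TFIIS gene, was at 0.89, with 263 in C4-2B-MDVR and 142 in C4-2B. ELOA, an elongin subunit, was at −0.37, with 274 in C4-2B-MDVR and 354 in C4-2B, and a pair of further ELOA probe sets that passed the floor had 0.25 and 0.26.

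Among 12 listed genes for neurotrophin signalling and the LMO2 complex, 9 had a single-symbol probe set, 4 were above the floor and 0 were past 2-fold. MAGED1, which also binds p75NTR, was at 0.83, with 2895 in C4-2B-MDVR and 1634 in C4-2B. LDB1, the partner that bridges LMO2 complexes, was at 0.51, with 265 in C4-2B-MDVR and 186 in C4-2B.

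All 10 listed genes of the FEM1B ligase and its substrate axis were above the floor. Of these 7 were below 0, as were 44.8% of all genes above the floor, and the median was −0.31 against 0.04 over all genes. None was past 2-fold in the higher direction and 1 of the 10 was in the lower, where the share of all genes was 3.50%. The one was FNIP2, a folliculin-interacting protein, at −1.67, with 125 in C4-2B-MDVR and 397 in C4-2B. The FNIP2 probe sets besides this one that passed the floor were at −1.35 and −1.07. FNIP1, the substrate of FEM1B, was at −0.73, with 181 in C4-2B-MDVR and 300 in C4-2B. Its further probe sets that passed the floor were at −1.34 and −0.74, both under the floor in C4-2B-MDVR. For some of the 10 genes another probe set above the floor had the opposite sign. The count of 7 below 0 thus depends on the probe set that stands for each gene.

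The genes whose difference lay nearest to that of BEX1, among protein-coding genes above the floor on both arrays, were SYT4 (4.41), PLPPR1 (4.38), PLA2G2A (3.48), BEX5 (3.45) and SCD5 (3.35). The measure is the distance between log2 differences over 2 samples, and it was 0.45 for SYT4 and 1.51 for SCD5. Since BEX1 had the largest difference of this set, the genes nearest to it are those with the next largest. The list was fixed by this and says nothing of a shared behaviour.

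The labelled cell type was checked against marker lists by the probe set that stands for each gene. All 10 luminal prostate markers with a single-symbol probe set were above the floor on at least 1 array. Of these 2, KLK3 and KLK2, were 2-fold or more lower, against 3.50% of all genes above the floor. None was 2-fold or more higher. In all 6 were below 0 and 4 above it, with ACP3 highest at 0.99 (315 in C4-2B-MDVR and 158 in C4-2B). The summed intensity was 13845 in C4-2B-MDVR and 23892 in C4-2B, and KLK3 was the brightest of the 10 in C4-2B. KLK3 was at 172 in C4-2B-MDVR and 8379 in C4-2B, and KLK2 at 295 in C4-2B-MDVR and 1263 in C4-2B. Of 7 neuroendocrine markers 2 were above the floor, NCAM1 (0.08) and SYP (−0.35), with a summed intensity of 162 in C4-2B-MDVR and 164 in C4-2B, and CHGA, CHGB, INSM1, SCG2 and SCG3 were under it on both arrays. Of 6 fibroblast markers 3 were above the floor (sums 388 in C4-2B-MDVR and 419 in C4-2B). COL1A1 entered this sum with its brightest probe set, at −0.23, while 2 more of its probe sets passed the floor. One was at 1.07, with 116 in C4-2B-MDVR against 55.4 in C4-2B, and the other at 1.20, with 105 in C4-2B-MDVR against 45.7 in C4-2B. Of 6 blood and endothelial markers 3 were above the floor (sums 268 in C4-2B-MDVR and 258 in C4-2B). Those above it were CD3E (73.6 in C4-2B-MDVR and 69.9 in C4-2B), VWF (73.6 and 80.4) and PECAM1 (67.9 and 58.9). On the C4-2B array CD3E and VWF thus had higher intensities than BEX1 (66.7) and BEX5 (59.6). PTPRC, CD14 and CDH5 were under the floor on both arrays. RNA came from whole cultures, so more cells with a transcript and more of it per cell cannot be told apart.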

How the data were processed

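Total RNA of C4-2B-MDVR and C4-2B cells, 1 sample each, was amplified, labelled with biotin and put on Affymetrix arrays, per the labels. The deposited intensity values are linear, judging by their range. How the authors corrected background, normalized and summarized them is not given in the sources used here. These values were taken as they stand and put on the log2 scale. The table held 0 other sample columns. The platform annotation of 2016 lists 42898 probe sets, 41097 with 1 symbol and 1801 with several, which named no gene. Entrez identifiers matched RefSeq for 41043 of those with 1 symbol. A gene with several probe sets was represented by the one brightest on average.

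The floor was each array's 50th percentile over all its probe sets, and 2-fold means a log2 difference of 1. No detection call was made, so passing the floor does not show that a transcript was present. With 1 array per line no test was possible. The members and lists were chosen with earlier results of these data known. Named were all members. In the family, TFIIS and partner lists the genes past 2-fold and the 2 with the largest difference above the floor were named. So were X chromosome neighbours past 2-fold and the 5 genes nearest to BEX1 by difference. Marker genes given with values of their own were chosen after these were seen. Alternatives were other scalings, floors, thresholds and probe set rules. The calls were tested on simulated data, with changes larger than 2-fold put into probe sets well above the floor. Recovery of changes near 2-fold or near the floor was not tested. Python 3.11.15, numpy 2.4.6, pandas 2.3.3, statsmodels 0.14.6 and matplotlib 3.10.9 were used.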

Additional observations from a re-analysis of the deposited data

How the results depend on the processing

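Under median centring, quantile normalization and loess, each member probe set moved by at most 0.13 on the log2 scale and none crossed 2-fold or changed sign. The counts of members were 6 higher and 0 lower under these 3 scalings, with low values set to the floor, with a floor at the 25th percentile and with none. With a floor at the 75th percentile 5 were higher, since TCEAL2 was below it. At 1.5-fold 7 were higher and at 3-fold 4 by measured difference, or 3 by bound, since TCEAL2 has a bound of 2.12-fold. When all probe sets of a gene were averaged 5 were higher, without ARMCX4, and without probe sets named _s_at or _x_at 5, without BEX4. The count of other family genes 2-fold or more higher was 1 throughout except at 3-fold, where it was 0, since TCEAL9 is under 3-fold. No paired analysis was possible because there is 1 array per cell line, and for the same reason no replicate could be left out. The number of arrays limits the precision of every value.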

Other observations

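The promoters of the members differed in their content of CpG, the pair of letters at which DNA is methylated. Over the 300 bases of an entry the members had 5 to 32 CpG with a median of 17, against a median of 14 over all 35116 promoters in the table. Of the members past 2-fold, BEX1 had 25, TCEAL2 27, TCEAL3 30, ARMCX4 21 and 26, BEX4 16 and 17, and BEX5 14 and 13, with 1 count for each annotated start. Of those within 2-fold, BEX3 had 7, 23 and 32, BEX2 17, TCEAL4 12 and TCEAL1 5 and 14. No methylation was measured in these samples, so whether CpG content goes with the differences was not tested.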
